A study of Mus musculus with 16 samples.

Results

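The lysyl oxidase family of the mouse consists of Lox and the lysyl oxidase-like genes Loxl1, Loxl2, Loxl3 and Loxl4. The members were taken by gene symbol from a table of CPM, the reads of a gene scaled to an equal library total, that covers protein-coding genes, where each of the 5 had 1 row among 21924 genes. All 5 were among the 14841 genes that were tested because 2 or more libraries held them at a CPM of 1 or above. The libraries came from germline stem (GS) cells, which are spermatogonial stem cells of the testis expanded in culture with the growth factors GDNF and FGF2. The cells grew on mouse embryonic fibroblasts as feeders, and RNA of both cell types can therefore enter a library.

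The 16 libraries formed 8 groups of 2. Wild type cells of the DBA/2 strain were sequenced at 20% and at 1% oxygen. Cells of a 129 x C57BL/6 mixed background labelled Hif1a wild-type or Hif1a KO were each sequenced at both oxygen levels. Cells of a C57BL/6 background labelled Top1mt wild type or Top1mt KO were sequenced at 1% oxygen only. In the Hif1a KO groups the target gene was to be deleted with AxCANCre, an adenovirus that carries the Cre recombinase, given on the day low oxygen began. The sources used here do not say whether wild type cells received a virus, which stretch of Hif1a was removed or whether a line was 1 clone. The series text states 2 days of low oxygen. The names of the Hif1a libraries at 1% oxygen carry the mark 6d, those of the Top1mt libraries carry 2d and those of the DBA/2 libraries carry no time, so that lines cannot be compared at a known equal time. Within the DBA/2 and Hif1a lines the numbers in the library names jump between the oxygen levels. The names of the Hif1a libraries at 1% also carry a B that those at 20% lack. The labels do not say what the numbers or the B stand for, so oxygen level and whatever they mark cannot be told apart.

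Lysyl oxidases are secreted enzymes with a copper ion and a quinone cofactor made from their own residues. They oxidise lysine side chains of collagen and elastin to aldehydes, which then react with each other into the covalent crosslinks that give connective tissue its tensile strength and recoil. Lox and Loxl1 are made as proenzymes whose propeptide is cleaved by proteases of the Bmp1 type, whereas Loxl2, Loxl3 and Loxl4 carry scavenger receptor cysteine-rich domains in its place. Fibroblasts are a main source of these enzymes, and LOX and LOXL2 are known from other cells as genes induced by low oxygen through hypoxia-inducible factors.

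In the GENCODE M21 annotation of build GRCm38 (mm10) the 5 genes lie on 5 chromosomes. Lox lies at chr18:52516067-52529867 on the minus strand, Loxl1 at chr9:58287738-58313186 on the minus strand and Loxl2 at chr14:69609068-69695834 on the plus strand. Loxl3 lies at chr6:83034173-83052562 on the plus strand and Loxl4 at chr19:42593982-42612813 on the minus strand. The 3' end of Loxl3 overlaps Htra2 on the opposite strand, and Lox and Loxl2 overlap antisense genes that are not in the table. The libraries were stranded, but the strand setting of the counting was not stated, so reads in those overlaps may be shared.

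RefSeq's promoter table for GRCm38.p6 held 1 of the 5 members, Loxl4. Its 250 bases before RefSeq's gene start, which lies a few bases inside the gene as GENCODE places it, are shown because the core of the hypoxia response element, the site bound by hypoxia-inducible factors, was searched in them as ACGTG or GCGTG on both strands. They run from chr19:42612807-42613056 on the minus strand, 5' to 3', with the 1 match in capitals.

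Loxl4: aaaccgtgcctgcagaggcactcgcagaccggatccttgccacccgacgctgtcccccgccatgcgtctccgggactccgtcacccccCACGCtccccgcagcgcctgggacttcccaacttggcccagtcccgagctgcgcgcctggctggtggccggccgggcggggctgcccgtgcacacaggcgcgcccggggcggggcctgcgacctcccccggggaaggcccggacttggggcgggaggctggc

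The capitals are GCGTG read on the opposite strand, 162 to 158 bases before the start. The window had 76.0% G and C. Of 32851 promoters of the same length in that table, 12679 (38.6%) held at least 1 of the 2 motifs, so the match is common and describes only the letters of this window.

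The libraries held 11942104 to 25659895 reads on the listed genes. The member with the fewest reads, Loxl4, had 103 to 1181 reads in a library, and Lox had 3560 to 98072. Nothing in the labels says that the 2 libraries of a group came from separate cultures, so p-values measure the spread between these libraries, which may be technical. As a check of the labels, Top1mt stood at 32.8 and 34.8 CPM in the Top1mt wild type libraries and at 9.99 and 10.96 in those labelled Top1mt KO (limma, log2 fold change -1.60, adjusted p = 1.48e-12). Hif1a went against its label. It stood at 116 and 118 CPM in Hif1a wild type and 139 and 142 in the libraries labelled Hif1a KO at 20% oxygen, and at 250.7 and 250.7 against 618 and 593 at 1%, higher in the libraries labelled KO both times (adjusted p = 0.00344 and 1.04e-12). Counts over the whole gene do not show a deleted exon, so the groups are called by their label throughout.

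Fibroblast markers of the feeders differed between groups. The summed CPM of 18 fibroblast markers ran from 2180 to 15387 over the libraries, with group means of 2878 and 2336 in DBA/2 at 20% and 1% oxygen, 3777 and 6865 in Hif1a wild type, 5811 and 15154 in labelled Hif1a KO, and 5343 and 10511 in Top1mt wild type and labelled Top1mt KO. The sum of 16 germ cell markers ran from 1942 to 6053 and was lowest in labelled Hif1a KO at 1% oxygen. Sums of 5 markers each for Sertoli cells (19.5 to 51.9), Leydig cells (4.13 to 6.73), endothelium (13.6 to 44.1) and leukocytes (13.7 to 40.8) were small, and 5 myofibroblast markers ran from 91.2 to 2575. In bulk RNA, fewer cells of a type and less RNA per cell cannot be told apart. Each member is therefore also given per 1000 CPM of the feeder markers of the same library, and the part that feeder RNA plays in a result was not tested. The markers did not move as 1 in DBA/2, where mean CPM went from 43.2 to 6.47 for Lum, from 52.3 to 68.4 for Prrx1 and from 638 to 728 for Vim.

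Lox, the founding member, was also the most abundant and spanned 24.2-fold from its lowest to its highest group. In DBA/2 cells it measured 203 and 152 CPM at 20% oxygen and 794 and 674 at 1%. In Hif1a wild type it measured 456 and 483 at 20% and 2015 and 2309 at 1%, and in labelled Hif1a KO 738 and 852 at 20% and 3896 and 3822 at 1%. In Top1mt cells, all at 1%, it measured 2340 and 2297 in wild type and 4303 and 4276 in labelled KO. Every library at 1% lay above every library at 20% of its own line and label. In order from low to high the groups were DBA/2 at 20%, Hif1a wild type at 20%, DBA/2 at 1%, labelled Hif1a KO at 20%, Hif1a wild type at 1%, Top1mt wild type at 1%, labelled Hif1a KO at 1% and labelled Top1mt KO. Only DBA/2 at 1% with labelled Hif1a KO at 20%, and Hif1a wild type with Top1mt wild type at 1%, overlapped with their neighbour in that order.

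Loxl1, best known for elastic fibre upkeep, ran at a lower level and in another order. It measured 50.3 and 34.5 CPM in DBA/2 at 20% and 31.4 and 31.6 at 1%. In Hif1a wild type it measured 76.1 and 82.7 at 20% and 106 and 139 at 1%, and in labelled Hif1a KO 118 and 151 at 20% and 294 and 284 at 1%. Top1mt wild type libraries held 98.1 and 98.1 and those labelled Top1mt KO 197 and 213. The lowest group was thus DBA/2 at 1% and the highest labelled Hif1a KO at 1%, and along the order only Hif1a wild type at 1% overlapped with labelled Hif1a KO at 20%.

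Loxl2, which oxidises type IV collagen of basement membranes and is studied for matrix stiffening in tumours, followed the order of Lox more closely. It measured 76.1 and 63.5 CPM in DBA/2 at 20% and 239 and 211 at 1%. It measured 113 and 118 at 20% and 406 and 463 at 1% in Hif1a wild type, and 155 and 174 at 20% and 865 and 860 at 1% in labelled Hif1a KO. Top1mt wild type libraries held 725 and 675, and labelled Top1mt KO libraries 1484 and 1379. No neighbouring groups overlapped, and all 10 libraries at 1% oxygen stood above all 6 at 20%.

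Loxl3, needed in the mouse for palate and spine development, had the narrowest span, 5.64-fold between groups. It measured 41.3 and 32.6 CPM in DBA/2 at 20% and 22.9 and 23.0 at 1%. It measured 46.3 and 48.9 at 20% and 54.1 and 68.9 at 1% in Hif1a wild type, and 76.4 and 87.2 at 20% and 130 and 129 at 1% in labelled Hif1a KO. Top1mt wild type libraries held 38.2 and 38.5 and labelled Top1mt KO 80.5 and 76.9. The DBA/2 libraries at 1% were the lowest of all, and Top1mt wild type at 1% overlapped with DBA/2 at 20%, as did labelled Top1mt KO with labelled Hif1a KO at 20%.

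Loxl4, the least abundant member, was low in every group but 1. It measured 6.05 and 4.39 CPM in DBA/2 at 20% and 6.09 and 4.67 at 1%, which overlapped. It measured 8.15 and 8.27 at 20% and 10.6 and 11.9 at 1% in Hif1a wild type, 15.0 and 14.6 at 20% in labelled Hif1a KO, and 9.15 and 9.12 in Top1mt wild type against 20.3 and 19.6 in labelled Top1mt KO. The 2 libraries labelled Hif1a KO at 1% stood at 54.2 and 46.0, above all 14 others.

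**Figure D1:**
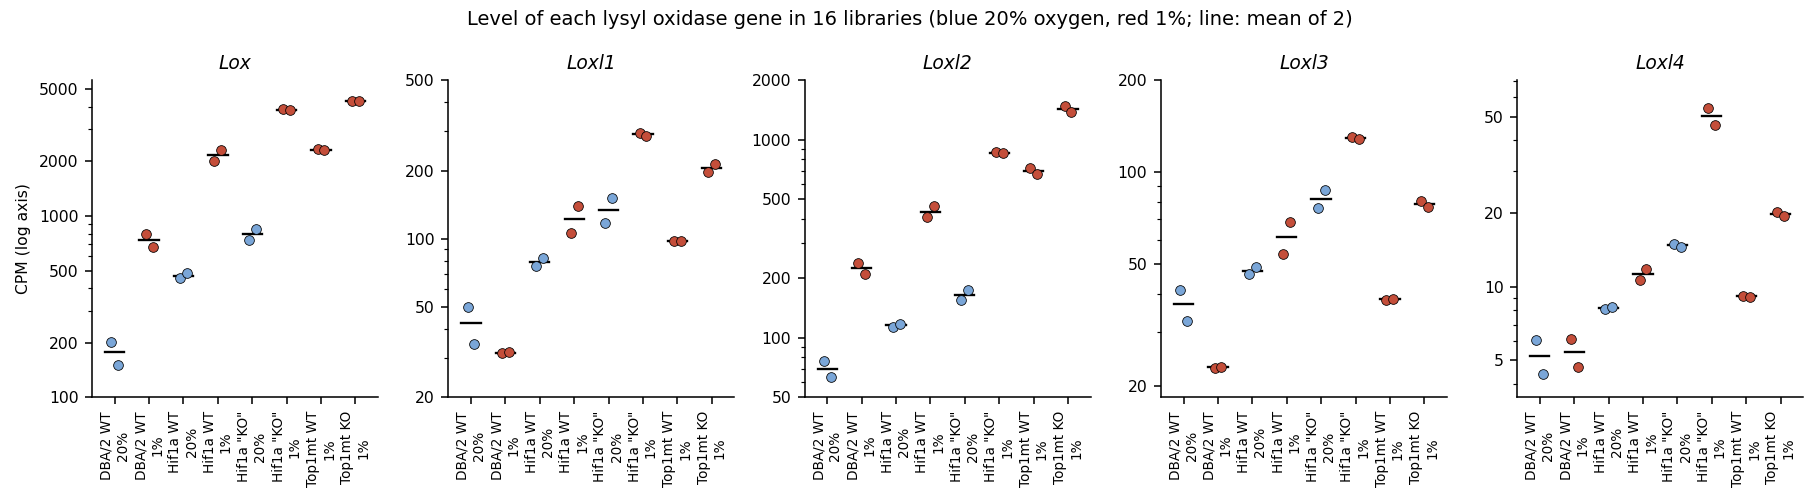
CPM of the 5 lysyl oxidase genes (log axis, 1 panel per gene) in the 16 libraries, with points for libraries, lines for the mean of 2, blue for 20% oxygen and red for 1%. Lox and Loxl2 step up at 1% oxygen in DBA/2, Hif1a wild type and labelled Hif1a KO, Loxl1 and Loxl3 are lowest in DBA/2 at 1%, and Loxl4 stands at 54.2 and 46.0 CPM in labelled Hif1a KO at 1%.

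Levels of different genes were compared per kilobase of exon. The summed family rose from 72.2 ± 14.2 CPM per kb (SD, n = 2) in DBA/2 at 20% to 211 ± 21.6 at 1%, from 156 ± 6.43 to 586 ± 60.6 in Hif1a wild type and from 259 ± 27.97 to 1095 ± 15.3 in labelled Hif1a KO. Lox made up most of it in every group. Its share of the family went from 51.4% ± 0.370 (SD, n = 2) at 20% to 72.7% ± 0.947 at 1% in DBA/2, from 63.0% to 77.2% in Hif1a wild type and from 64.3% to 73.8% in labelled Hif1a KO. The share of Loxl1 moved the other way, from 17.7% to 4.55%, from 15.4% to 6.32% and from 15.7% to 8.01% in the same pairs. Loxl3 likewise went from 11.1% to 2.38%, from 6.63% to 2.27% and from 6.87% to 2.57%. Loxl2 kept a share of 11.8% to 21.2% across the 8 groups, the highest in labelled Top1mt KO. Loxl4 made up 1.71% at most.

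**Figure D2:**
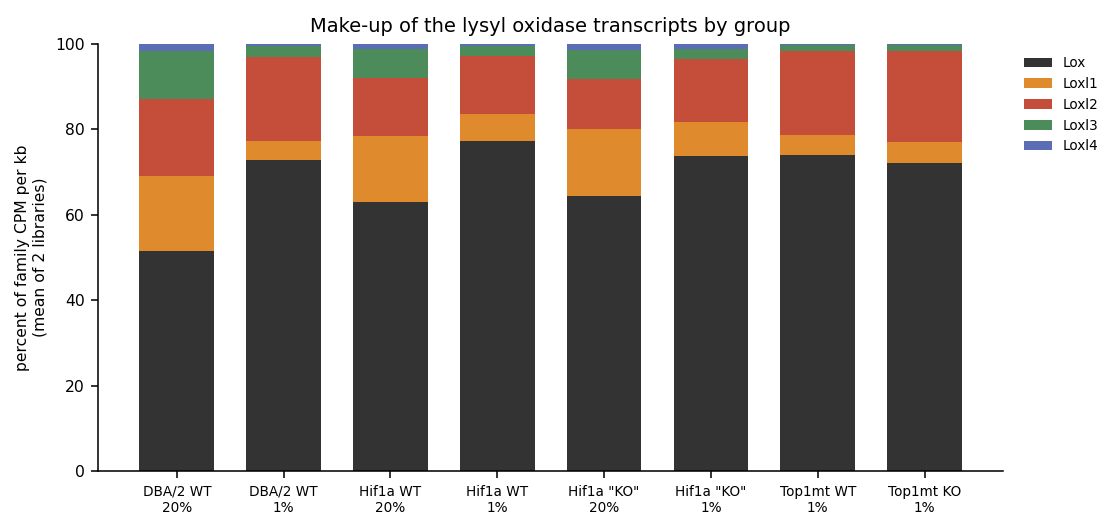
Share of each member in the family's summed CPM per kb of exon, in percent, as stacked bars from 0 to 100 for the 8 groups (mean of 2 libraries). The Lox share is 51.4% to 64.3% in the 3 groups at 20% oxygen and 72.0% to 77.2% in the 5 groups at 1%.

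The first comparison set 1% against 20% oxygen in DBA/2 wild type cells. Lox and Loxl2 rose, Loxl1 and Loxl3 fell and Loxl4 did not pass the test. Mean CPM of Lox was 4.13-fold higher at 1% (limma on log2(CPM + 1), log2 fold change 2.05, SE 0.10, adjusted p = 2.51e-12) and that of Loxl2 3.22-fold higher (1.68, SE 0.08, adjusted p = 1.58e-12). Only 42 of the 14841 genes tested had a larger fold change than Lox and 76 a larger one than Loxl2. In this comparison 57.4% of all genes tested were called, 31.8% higher and 25.5% lower, so a call by itself is common. That 4 of 5 members were called is read against that share.

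The falls were smaller than these rises, and that of Loxl1 was not firm. Loxl3 fell by 0.65 on the log2 scale (SE 0.10, adjusted p = 1.31e-05) and Loxl1 fell by 0.39 (SE 0.13, adjusted p = 0.0156), although both turned to 0.05 and 0.32 when counts were scaled to the feeder markers without Sparc and Vim. Without the first DBA/2 library at 20%, which held 50.3 CPM, the log2 difference of Loxl1 was -0.13 (adjusted p = 0.418), and leaving out either library at 1% gave adjusted p = 0.0640 and 0.0570. Over its 11 alternatives other than feeder scaling, Loxl1 was called in 7, with adjusted p from 1.71e-04 to 0.418. Loxl4 differed by 0.04 (SE 0.13, adjusted p = 0.810).

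Feeder markers fell in the same comparison, 12 of 18 being lower and 2 higher, with a median log2 fold change of -0.46. Against that background Lox went from 63.4 and 59.5 to 318 and 309 CPM per 1000 CPM of feeder markers, and Loxl2 from 23.8 and 24.9 to 96.0 and 96.7. Lox and Loxl2 were higher at 1% both per library and per feeder marker (feeder-scaled log2 fold changes 2.35 and 1.98). Loxl1 went from 15.7 and 13.5 to 12.6 and 14.5, which overlap, and Loxl3 from 12.9 and 12.8 to 9.17 and 10.6. Of the feeder sum, Sparc and Vim made up 38.6% at 20% and 54.3% at 1%, so the scale itself changed its make-up in this line.

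In Hif1a wild type cells all 5 members were higher at 1% than at 20% oxygen, where 53.1% of all genes were called, 18.4% higher and 34.6% lower. Scaled to feeder markers Loxl1, Loxl3 and Loxl4 turned lower, Loxl1 without passing the test (limma, adjusted p = 0.102). Lox was 4.61-fold higher (log2 fold change 2.20, SE 0.10, adjusted p = 7.70e-13) and Loxl2 3.76-fold (1.90, SE 0.08, adjusted p = 2.12e-13). Smaller rises were those of Loxl1 by 0.61 (adjusted p = 6.56e-04), Loxl4 by 0.41 (adjusted p = 0.0108) and Loxl3 by 0.35 (adjusted p = 0.00525). Their libraries did not overlap, but the share of all genes without overlap was not counted. Here 12 of 18 feeder markers rose and 1 fell. Relative to them Lox still went from 123 and 125 to 319 and 311 per 1000 and Loxl2 from 30.7 and 30.5 to 64.3 and 62.4, while Loxl1 (20.6 and 21.4 to 16.8 and 18.8), Loxl3 (12.6 and 12.7 to 8.56 and 9.29) and Loxl4 (2.21 and 2.14 to 1.69 and 1.60) were lower. Without the second library at 1%, the calls of Loxl3 (0.18, adjusted p = 0.140) and Loxl4 (0.34, adjusted p = 0.0788) were lost and 3 of 5 members were called; without the first library at 20% that of Loxl4 was also lost (adjusted p = 0.0539). Over 11 alternatives Loxl3 was called in 10 (adjusted p from 1.12e-04 to 0.140) and Loxl4 in 9 (0.00250 to 0.0788).

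In cells labelled Hif1a KO all 5 members were again higher at 1% oxygen, against 79.9% of genes called, 25.2% higher and 54.7% lower, with Loxl1 and Loxl3 turning lower when scaled to feeder markers. Lox was 4.85-fold higher (log2 fold change 2.28, SE 0.10, adjusted p = 1.22e-13), Loxl2 5.24-fold (2.39, SE 0.08, adjusted p = 2.33e-15) and Loxl4 3.39-fold (1.69, SE 0.13, adjusted p = 2.63e-10). Loxl1 rose by 1.11 (SE 0.13) and Loxl3 by 0.66 (SE 0.10). Feeder markers rose too, 17 of 18 with none lower and a median of 1.19, and all 16 germ cell markers fell. Per 1000 CPM of feeder markers, Lox went from 138 and 136 to 253 and 256, Loxl2 from 29.0 and 27.7 to 56.2 and 57.7 and Loxl4 from 2.80 and 2.33 to 3.52 and 3.08. On that scale Lox, Loxl2 and Loxl4 were higher at 1% (log2 fold changes 0.89, 1.00 and 0.35). Loxl1 (21.9 and 24.1 to 19.12 and 19.04) and Loxl3 (14.3 and 13.9 to 8.47 and 8.62) were lower, Loxl1 without passing the test (limma, adjusted p = 0.0678).

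**Figure D3:**
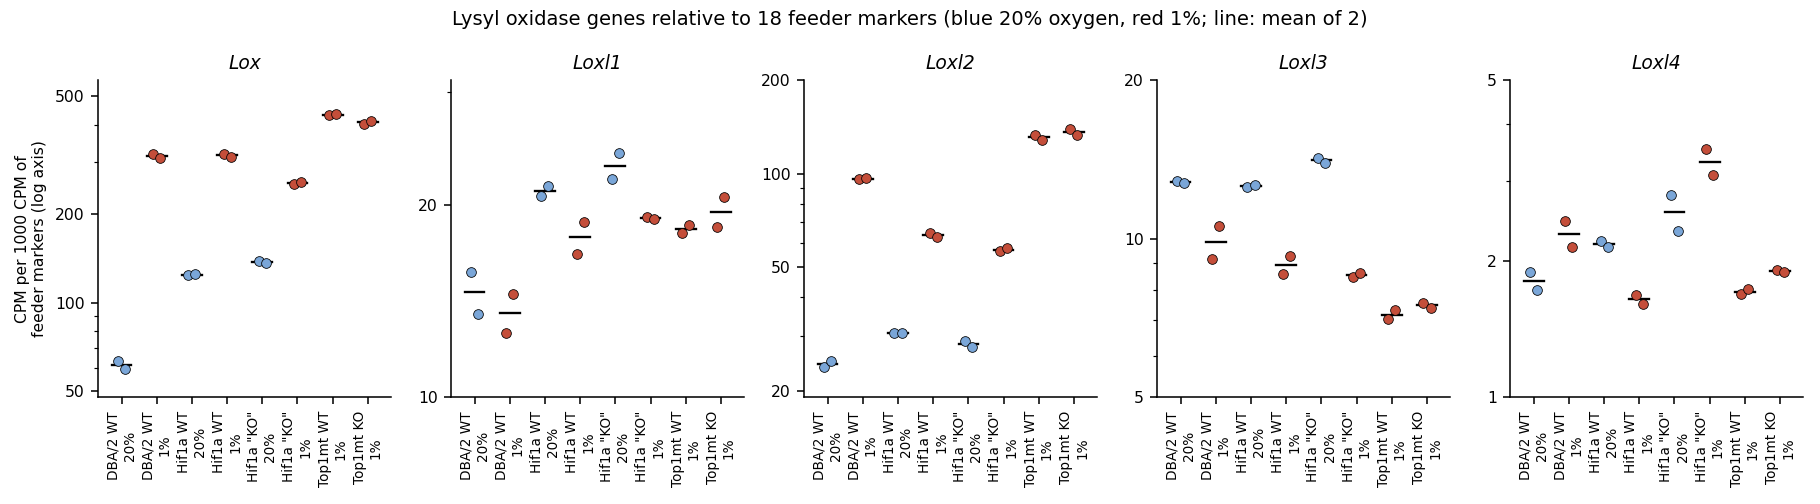
The 5 members as CPM per 1000 CPM of 18 feeder markers in the same library (log axis), with points for libraries, lines for the mean of 2, blue for 20% and red for 1% oxygen. Lox and Loxl2 stay higher at 1% in DBA/2, Hif1a wild type and labelled Hif1a KO, Loxl3 is lower at 1% in all 3 (in DBA/2 not when the scale leaves out Sparc and Vim), and Loxl4 is highest in labelled Hif1a KO at 1%.

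Whether the oxygen response differed with the Hif1a label was tested as an interaction, which shares its 8 libraries with the comparisons above. The response was larger in the labelled KO for Loxl4 by 1.28 (SE 0.18, adjusted p = 8.38e-06), and 77 of 14841 genes had a larger value. It was larger by 0.49 for Loxl2 (SE 0.11, adjusted p = 0.00105) and by 0.50 for Loxl1 (SE 0.19, adjusted p = 0.0264), though scaled to feeder markers these were -0.04 and -0.03, whereas Loxl4 kept 0.72. By CPM Lox did not pass (0.08, SE 0.14, adjusted p = 0.640), nor did Loxl3 (0.31, adjusted p = 0.0654). The sign and the call of Lox depended on the scaling. Lox was at -0.45 when scaled to feeder markers (limma, adjusted p = 0.0421) and at 0.36 with median-of-ratios scaling (limma, adjusted p = 0.0459). Loxl3 was at -0.22 when scaled to feeder markers (limma, adjusted p = 0.379). The 3 calls by CPM, all higher, stand against 58% of all genes called, 19% higher and 39% lower. The call of Loxl1 was lost when any of 4 of the 8 libraries was left out: the second wild type library at 20% (adjusted p = 0.0912), the first at 1% (0.162), the first labelled KO library at 20% (0.164) or the first at 1% (0.0736). Loxl3 was called with edgeR on whole reads (adjusted p = 0.00389), with median-of-ratios scaling (0.00200), without the second wild type library at 1% (0.00303) and without the second labelled KO library at 20% (0.0299). Over 15 alternatives other than feeder scaling, Loxl1 was called in 10 (adjusted p from 0.00196 to 0.164) and Loxl3 in 6 (7.92e-04 to 0.391).

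The response was also compared between the 2 wild type lines, although their times in low oxygen may differ. Loxl1 and Loxl3 responded in opposite directions by CPM, and the difference, Hif1a line minus DBA/2, was 1.00 for Loxl1 (SE 0.19, adjusted p = 2.35e-04) and 1.01 for Loxl3 (SE 0.14, adjusted p = 1.02e-05); scaled to feeder markers they were -0.13 and -0.12. By CPM Lox (0.15, adjusted p = 0.411), Loxl2 (0.22, adjusted p = 0.116) and Loxl4 (0.37, adjusted p = 0.0994) did not pass. Scaled to feeder markers, Lox, Loxl2 and Loxl4 were at -1.01, -0.93 and -0.69. On that scale they passed the test in the other direction (limma, adjusted p = 1.13e-06, 5.42e-06 and 0.00357). The 2 calls by CPM, those of Loxl1 and Loxl3, stand against 46% of genes called, 15.1% higher and 30.9% lower. The count was 5 without the second DBA/2 library at 20%, where Lox, Loxl2 and Loxl4 were added, and 4 without the first at 1%.

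At 20% oxygen all 5 members were higher in libraries labelled Hif1a KO than in wild type, by 0.50 (Loxl2) to 0.78 (Loxl4) on the log2 scale. Of all genes 22.4% were called, 12.9% higher and 9.55% lower. Scaled to 18 feeder markers none of the 5 members passed the test, and Loxl2 turned to -0.11. Lox was 1.69-fold higher (0.76, SE 0.10, adjusted p = 5.05e-05), Loxl1 1.69-fold (0.74, adjusted p = 5.12e-04), Loxl3 1.72-fold (0.77, adjusted p = 4.25e-05) and Loxl4 1.80-fold (0.78, adjusted p = 2.71e-04). No libraries of the 2 groups overlapped for any member, but how many of all genes tested were also without overlap was not counted. Feeder markers rose with them, 17 of 18, with a median of 0.57. Scaled to those markers the 5 differences were between -0.11 and 0.22 (limma, adjusted p from 0.208 to 0.452). Without Sparc and Vim in the scale, only Loxl4 passed (0.33, adjusted p = 0.0485).

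At 1% oxygen the same comparison gave 5 members higher, against 77.4% of genes called, 28.3% higher and 49.1% lower. Scaled to feeder markers Lox turned to -0.31 and passed the test (limma, adjusted p = 0.0316). Without Sparc and Vim in the scale it did not pass (limma, -0.19, adjusted p = 0.187). Loxl2 and Loxl3 turned to -0.15 and -0.06 without passing (limma, adjusted p = 0.288 and 0.696). Loxl1 kept only 0.10 (limma, adjusted p = 0.501). Loxl4 stood apart. It was 4.45-fold higher in the labelled KO (2.06, SE 0.13, adjusted p = 2.80e-11), 29 of 14841 genes had a larger rise, and relative to feeder markers it was still higher by 0.94 (1.69 and 1.60 per 1000 in wild type, 3.52 and 3.08 in the labelled KO). Loxl1 was 2.36-fold higher (1.24), Loxl3 2.11-fold (1.07), Loxl2 1.99-fold (0.99) and Lox 1.78-fold (0.84), with adjusted p from 8.54e-10 to 2.49e-07. All 18 feeder markers were higher, with a median of 1.12, and all 16 germ cell markers lower.

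Top1mt encodes the mitochondrial type I topoisomerase, and its comparison at 1% oxygen gave near-equal rises of the 5 members in the libraries labelled Top1mt KO. Scaled to feeder markers none of the 5 passed the test, and Lox turned to -0.09. Mean CPM was 1.85-fold higher for Lox (0.89, SE 0.10, adjusted p = 3.40e-07), 2.09-fold for Loxl1 (1.06, adjusted p = 1.12e-06), 2.05-fold for Loxl2 (1.03, adjusted p = 2.15e-09), 2.05-fold for Loxl3 (1.02, adjusted p = 4.26e-08) and 2.18-fold for Loxl4 (1.05, adjusted p = 9.12e-07). Libraries of wild type and labelled KO did not overlap for any member, but the share of all genes without overlap was not counted. Of all genes 58.4% were called, 25.2% higher and 33.2% lower. All 18 feeder markers were higher, with a median of 0.92, and all 16 germ cell markers were lower, with a median of -0.59. On the feeder scale the members differed by -0.09 to 0.14 (limma, adjusted p from 0.425 to 0.713). Per 1000 CPM of feeder markers Lox measured 432 and 436 in wild type and 404 and 412 in the labelled KO, and Loxl2 134 and 128 against 139 and 133. On that scale the Lox libraries labelled KO were lower without overlap, and those of Loxl2 overlapped. The Lox difference did not pass the test (limma, -0.09, SE 0.14, adjusted p = 0.550). The sum of the myofibroblast markers went from 642 to 2546 CPM, mostly through Acta2 (334 to 1431) and Tagln (255 to 1008). Cnn1 rose as well (20.1 to 69.8), whereas Myh11 (11.1 to 12.8) and Des (22.2 to 24.0) changed less than the members.

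**Figure D4:**
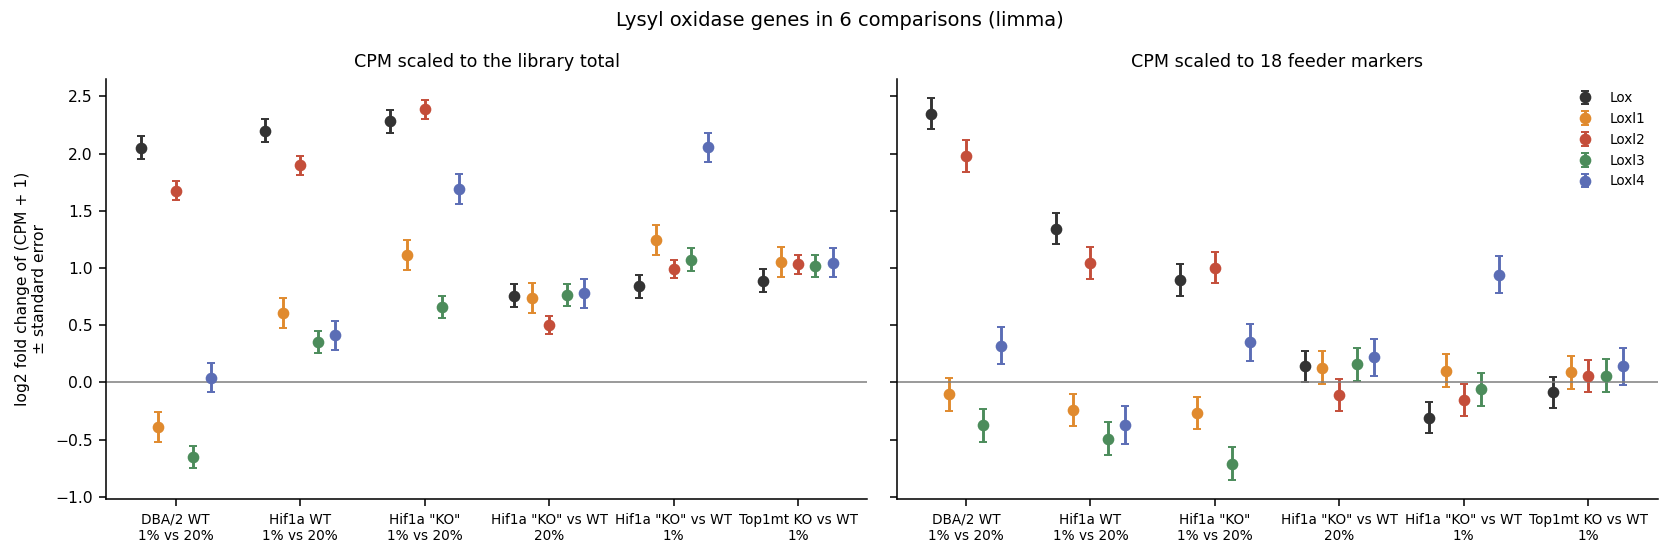
log2 fold changes of (CPM + 1) of the 5 members in 6 comparisons, with standard errors from limma, scaled to the library total (left) and to 18 feeder markers (right). On the left 28 of 30 values lie above 0 at up to 2.39; on the right the differences between labelled KO and wild type lie between -0.31 and 0.22 except 0.94 for Loxl4 at 1% oxygen, while Lox and Loxl2 keep 0.89 to 2.35 in the oxygen comparisons.

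The genes with which lysyl oxidases work were described next, as counts without a test of a list or of a difference between lists. Their counts are read against all genes tested, of which 31.8% were called higher and 25.5% lower in DBA/2, 18.4% and 34.6% in Hif1a wild type and 25.2% and 54.7% in labelled Hif1a KO. Feeder markers had median log2 fold changes of -0.46, 0.48 and 1.19 in these comparisons, and partner genes were not scaled to them. Bmp1, the protease that cleaves the propeptides of Lox and procollagens, moved against Lox in DBA/2 cells. It fell from 131 and 101 CPM to 71.8 and 68.5 (log2 fold change -0.70, adjusted p = 8.54e-06), whereas it rose by 0.82 in Hif1a wild type and by 1.52 in labelled Hif1a KO. Periostin (Postn), which binds Bmp1 and fibronectin near Lox, differed likewise by -0.24, 1.86 and 1.91. Of 7 genes for proenzyme processing and docking, 0 were higher and 3 lower in DBA/2, 4 higher and 2 lower in Hif1a wild type, and 4 higher and 1 lower in labelled Hif1a KO, with medians of -0.17, 0.82 and 1.38. The shares called in either direction over all genes were 57.4%, 53.1% and 79.9%. The medians of all genes tested in these comparisons were 0.04, -0.09 and -0.29.

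Among the substrates, fibrillar collagens were mostly lower in DBA/2 at 1% oxygen and mostly higher in the Hif1a line, as the feeder markers were (12 of 18 lower in DBA/2, and 12 and 17 of 18 higher in Hif1a wild type and labelled Hif1a KO). Of 11 fibrillar collagen genes 6 fell and 1 rose in DBA/2 at 1% oxygen (median -0.27), while 8 rose in Hif1a wild type (1.55) and 9 in labelled Hif1a KO (1.81), with 1 lower in each. Over all genes 25.5% were called lower in DBA/2, and 18.4% and 25.2% were called higher in the others. The part of feeder RNA in the collagen counts was not tested. Col3a1, a collagen of compliant tissues, went from 962 and 801 to 556 and 526 CPM in DBA/2 (-0.70, adjusted p = 2.47e-05), from 980 and 1111 to 5535 and 7033 in Hif1a wild type and from 1127 and 1485 to 10183 and 10104 in labelled Hif1a KO. Col1a2, a chain of type I collagen, fell by 0.63 in DBA/2 and rose by 1.92 and 2.31 in the others, and its partner Col1a1 differed by -0.01 (adjusted p = 0.974), 1.94 and 2.36. The same libraries of DBA/2 in which Lox was 4.13-fold higher thus held fewer reads of Col3a1, Col1a2 and Bmp1.

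Of 17 elastic fibre genes 5 were higher and 6 lower in DBA/2 (median -0.11), which is near the 31.8% and 25.5% of all genes. Fbn2, a fibrillin of early microfibrils, fell by 0.50 and Ltbp2, a microfibril protein related to the binders of latent TGF-beta, fell by 0.97, while Mfap5, another microfibril protein, rose by 0.86. In Hif1a wild type 14 of 17 rose and 1 fell (median 1.00), and in labelled Hif1a KO all 17 rose (1.43), against 18.4% and 25.2% of all genes called higher. Fbln5, a fibulin that binds Loxl1 and elastin, rose by 1.97 and 2.42 in these 2. Of 5 basement membrane collagens tested, 1 rose and 3 fell in DBA/2, 2 rose and 2 fell in Hif1a wild type, and 4 rose and 0 fell in labelled Hif1a KO (medians -0.65, -0.16 and 0.60). Col4a1, a chain of the common type IV collagen, fell by 0.65 in DBA/2 and by 0.73 in Hif1a wild type and rose by 0.40 in labelled Hif1a KO. Col4a5, a chain of kidney and skin basement membranes, rose by 0.25, 1.01 and 1.72.

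Of the lysyl hydroxylases, which prepare collagen lysines inside the cell, Plod2 and Plod1 rose with Lox in all 3 comparisons. Plod1 rose less than Lox (0.45, 0.69 and 1.49), and Plod3 did not pass in DBA/2 (limma, 0.14, adjusted p = 0.116). Plod2, the hydroxylase of the telopeptide lysines that Lox later oxidises, measured 124 and 122 CPM at 20% and 364 and 340 at 1% in DBA/2 (1.51, adjusted p = 2.02e-15). It was higher at 1% by 1.69 in Hif1a wild type and by 2.25 in labelled Hif1a KO. Of the 3 genes, 2 rose in DBA/2 and 3 in each of the others, where 31.8%, 18.4% and 25.2% of all genes were called higher. All 9 known low-oxygen genes taken as reference rose in all 3 comparisons (medians 1.87, 2.08 and 2.73), among them the lactate transporter Slc16a3 by 4.48, 3.67 and 4.91.

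Copper delivery genes were called about as often as all genes in DBA/2 and in labelled Hif1a KO. In DBA/2 5 of 11 rose and 2 fell (median 0.12), where 57.4% of all genes were called, led by the copper pump Atp7b (18.7 to 46.2 CPM on average, 1.26) and the metallothioneins Mt1 (0.88) and Mt2 (0.58). In Hif1a wild type 3 rose and 1 fell, where 53.1% of all genes were called. In labelled Hif1a KO 5 rose and 4 fell, where 79.9% were called, a split that was 7 and 0 with median-of-ratios scaling. Among 8 genes of TGF-beta signalling, a known inducer of Lox, Ccn2 rose with Lox in DBA/2 (1.74) while Tgfbi (-1.25) and Tgfb2 (-1.05) fell. Of these 8, 2 rose and 3 fell in DBA/2, 5 and 1 in Hif1a wild type and 6 and 2 in labelled Hif1a KO. Over all genes 31.8%, 18.4% and 25.2% were called higher in these comparisons and 25.5%, 34.6% and 54.7% lower. The 6 genes of epithelial-mesenchymal transition include known targets of Loxl2 and Loxl3 activity and the epithelial gene Cdh1. Of them 1 rose and 1 fell in DBA/2, 2 and 1 in Hif1a wild type and 4 and 1 in labelled Hif1a KO. Calls in either direction were thus no more than near the 57.4%, 53.1% and 79.9% of all genes. The gene that fell was Twist1 in DBA/2 (-0.27) and Cdh1 in Hif1a wild type (-0.44) and labelled Hif1a KO (-1.03). In labelled Hif1a KO 25.2% of all genes were called higher.

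**Figure D5:**
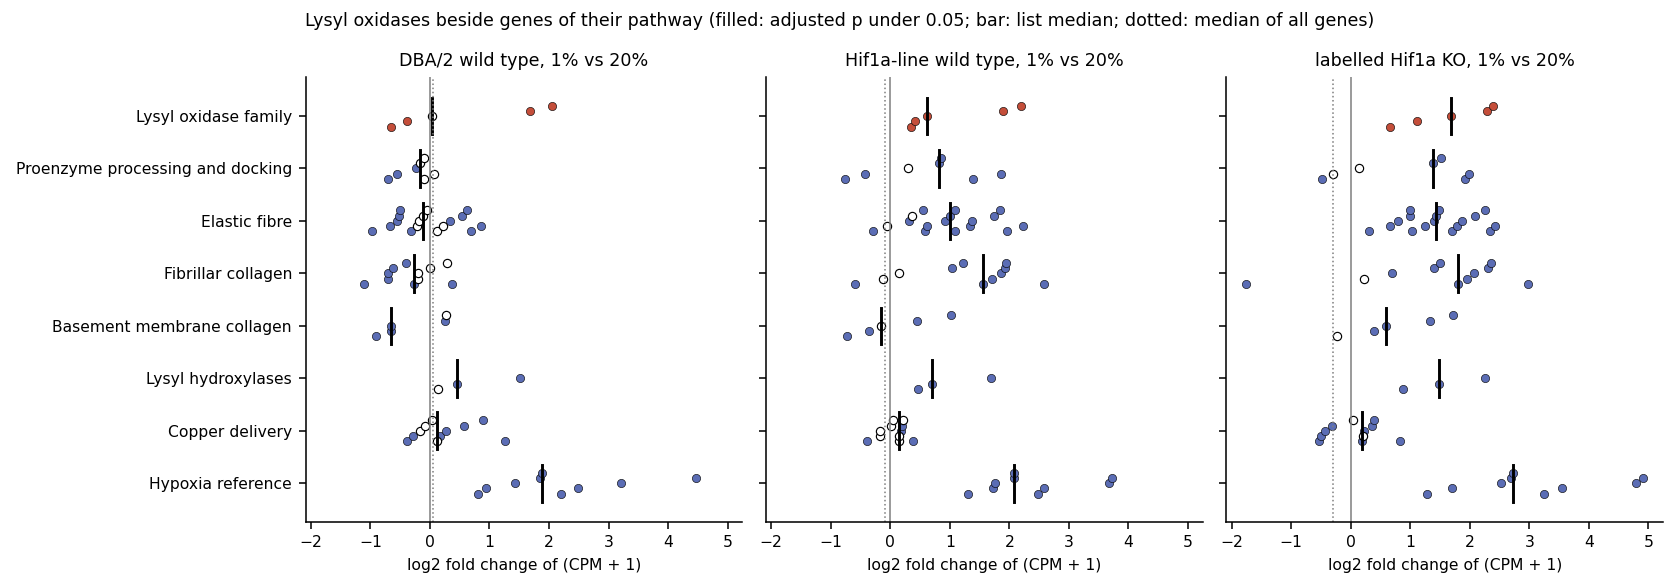
log2 fold changes of (CPM + 1) between 1% and 20% oxygen for the 5 lysyl oxidases (red) and genes of 7 lists (blue), 1 point per gene, filled where adjusted p is under 0.05, with bars for list medians and a dotted line for the median of all genes. In DBA/2 the fibrillar collagens have a median of -0.27 while Lox and Loxl2 lie at 2.05 and 1.68; in both Hif1a panels the collagen median is 1.55 or more.

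The members did not share 1 profile. Likeness was measured as the root-mean-square difference between mean-centred log2(CPM + 1) profiles over the 16 libraries, given as a description, since the profiles share their libraries and oxygen levels. Lox and Loxl2 differed by 0.33 from each other, and Loxl1, Loxl3 and Loxl4 by 0.37 to 0.40 among themselves. Across the 2 sets the differences were 0.95 to 1.25, against spreads of 0.73 to 1.51 of the members' own profiles. Ranked by nearness among the genes tested, Loxl2 stood at 3 for Lox and Lox at 5 for Loxl2. Loxl1, Loxl3 and Loxl4 stood at 140 to 555 for each other, so many genes outside the family lay closer to them. Nearest to Lox outside the family were Medag (0.16), Ccn1 (0.32) and Ccn2 (0.39), and nearest to Loxl2 were Medag (0.23), Ppp1r3b (0.30) and Pdgfd (0.32). Nearest to Loxl1 were Thbd (0.17), B3gnt9 (0.18) and Lrrc32 (0.19), and nearest to Loxl4 were Sept8 (0.20), Lgals3bp (0.21) and Ehd2 (0.21). Loxl3 lay nearest to Pkd2 (0.14), Cdh11 (0.15) and Emp1 (0.15), of which Cdh11 is 1 of the 18 feeder markers.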

How the data were processed

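The values are CPM in 1 table that the authors deposited, limited to protein-coding genes and made from TruSeq stranded mRNA libraries of total RNA, per the labels' protocols. Per the submitters' processing notes, cutadapt 1.16, STAR 2.6.0c, HTSeq 0.11.2 and DESeq2 1.22.2 were used with mm10. The strand setting and read filters are not given in the sources used here. All deposited CPM values were whole multiples of 1 read (100.0%, tolerance 0.01), so reads were recovered for edgeR and DESeq2.

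The main test was limma 3.58.1 (R 4.3.3) on log2(CPM + 1), with 1 mean for each of 8 groups, empirical Bayes with trend, no replicate block and Benjamini-Hochberg adjustment over 14841 genes (2 or more libraries at a CPM of 1 or above), called at 0.05. A fold change on this scale understates changes of low genes. Tested on simulated data for the DBA/2 comparison, limma recovered 100% of 200 genes changed 2-fold with 6 false calls among 14478 genes. Those 200 were drawn without the lowest genes, and all other genes were left unchanged. In the data 57.4% of genes were called in that comparison, so the simulation does not cover such broad change or low genes.

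Alternatives were a pseudocount of 0.5, no filter, median-of-ratios scaling, edgeR 4.0.16, DESeq2 1.42.0, a replicate block, the compared groups alone, each library left out, and scaling to 18 feeder markers. Scaling without Sparc and Vim was chosen after seeing the data.

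The members, the lists of markers and partner genes and the naming rule were chosen with earlier results of these data known. The rule named all 5 members, Hif1a and Top1mt, up to 3 genes per list and oxygen comparison with the smallest adjusted p, and the 3 genes nearest each member. Col1a1 was named after its values were seen, as the partner chain of Col1a2. Groups came from sample titles. Of 21924 symbols, 21897 matched GENCODE M21 once and 27 more than once.

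Scaling shifted all genes in some comparisons. The median log2 fold change was -0.29 in labelled Hif1a KO between oxygen levels, -0.21 between labelled KO and wild type at 1%, -0.17 for the interaction and -0.13 for the line difference, against 0.02, 0.03, 0.07 and -0.01 with median-of-ratios scaling. The share of calls that were higher moved from 34.7% to 49.7% in Hif1a wild type, from 31.6% to 53.0% in labelled Hif1a KO, from 36.6% to 54.2% between labels at 1%, from 32.8% to 61.4% for the interaction and from 32.9% to 51.6% for the line difference.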

Additional observations from a re-analysis of the deposited data

Results flagged for a closer look

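Effects of low oxygen that differed between groups, by limma's test of the difference itself, are listed here. Between labelled Hif1a KO and Hif1a wild type, the log2 oxygen response differed by 1.28 for Loxl4 (adjusted p = 8.38e-06), by 0.50 for Loxl1 (adjusted p = 0.0264) and by 0.49 for Loxl2 (adjusted p = 0.00105). Both libraries of labelled Hif1a KO at 1% oxygen were above the other 6 libraries of that line for these 3 genes. The same held for Lox and Loxl3, whose difference in response did not pass the test by CPM. That order of libraries therefore does not set the 3 genes apart. Scaled to feeder markers the values were 0.72 for Loxl4, -0.03 for Loxl1 and -0.04 for Loxl2.

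Between the wild type cells of the Hif1a line and of DBA/2, the response differed by 1.00 for Loxl1 (adjusted p = 2.35e-04) and 1.01 for Loxl3 (adjusted p = 1.02e-05). The DBA/2 libraries were lower at 1% oxygen and those of the Hif1a line higher. Scaled to feeder markers the differences were -0.13 and -0.12, and the time in low oxygen and the line cannot be told apart.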

How the results depend on the processing

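Depth did not limit the members, which had at least 103 reads in each library, but 2 libraries a group limit every error. With a pseudocount of 0.5 and with the compared groups alone, all 40 values of the 5 members in 8 comparisons kept their direction and their side of the threshold. edgeR and DESeq2 kept 38 of 40 and added 2 calls, median-of-ratios scaling kept 36 and added 4, and no filter kept 38 and lost 2, those of Loxl1 in DBA/2 (adjusted p = 0.0666) and for the interaction (0.0945). The members called for the interaction were 5 with median-of-ratios scaling, and those for the line difference were 4, in place of 3 and 2.

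Leaving out each library in turn kept 177 of 200 member values. Over these fits the members called were 3 to 5 in Hif1a wild type (3 without its second library at 1%), 2 to 4 for the interaction and 2 to 5 for the line difference. Loxl4 in DBA/2 ran from -0.15 to 0.23, with -0.12 without the first library at 1%; Lox ran from -0.021 to 0.18 for the interaction and from -0.061 to 0.36 for the line difference. Where 1 library was left, it was assumed to vary like the other groups.

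With the replicate block the line difference called 4 members, and Loxl3 was added to the interaction; no other member call changed. The numbers were not shown to pair libraries, since deviations of same-numbered libraries correlated by 0.15 in DBA/2, 0.10 and -0.06 between oxygen levels of the Hif1a line, 0.06 and -0.06 between its labels and 0.07 in Top1mt.

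Scaling to 18 feeder markers turned the sign of 19 of 40 values, and 10 more kept their sign but lost their call. The set without Sparc and Vim also turned 19, took the call from 10 and added 1. Some turned values lay near 0, such as Loxl1 for the interaction (limma, adjusted p = 0.920). The second value in each pair below is without Sparc and Vim. For Hif1a wild type the turned values were Loxl1 (-0.24, -0.25), Loxl3 (-0.49, -0.50) and Loxl4 (-0.37, -0.38). For labelled Hif1a KO between oxygen levels they were Loxl1 (-0.27, -0.28) and Loxl3 (-0.71, -0.72). Between Hif1a labels they were Loxl2 at 20% (-0.11, first set only) and at 1% Lox (-0.31, -0.19), Loxl2 (-0.15, -0.032) and Loxl3 (-0.061, first set only). Lox turned between Top1mt labels (-0.089, -0.045). For the interaction they were Lox (-0.45, -0.45), Loxl1 (-0.027, -0.030), Loxl2 (-0.042, -0.044) and Loxl3 (-0.22, -0.22). For the line difference they were Lox (-1.01, -1.44), Loxl1 (-0.13, -0.56), Loxl2 (-0.93, -1.37), Loxl3 (-0.12, -0.54) and Loxl4 (-0.69, -1.09). In DBA/2 the second set turned Loxl1 (0.32) and Loxl3 (0.046). The cause was not tested.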
